A study of Mus musculus with 9 samples.

Results

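The 9 genes described here are 5 STAT transcription factors (Stat2, Stat3, Stat4, Stat5a and Stat6) and the 4 chains of the interferon receptors (Ifnar1, Ifnar2, Ifngr1 and Ifngr2). They were taken by name from a deposited table of 41096 mouse genes. Of the 9, 8 were found by gene name, and Stat5a, whose name cell holds only an identifier, was found through the UniProt match in its description. RNA was sequenced from cells rinsed out of the peritoneal cavity, which the labels call peritoneal macrophages. All mice carried the genotype APOE-/-, which lacks apolipoprotein E and is used to study atherosclerosis. The 4 diabetic samples came from mice given streptozotocin, a toxin of the insulin-producing beta cells, at 40 mg/kg on each of 5 days beginning at 8 weeks of age. The 5 control samples came from mice given citrate buffer, and the labels call them nondiabetic. Mice of both groups then received western diet for 8 weeks and 1.5 mL of 3% thioglycollate, which irritates the cavity and recruits leukocytes. The cells were collected 3 days later with 10 mL of buffer. The labels describe no sorting step and do not say whether a sample is 1 mouse or a pool, and p-values therefore cover the spread between the samples, which may be technical in part.

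STAT proteins wait in the cytoplasm until a cytokine binds its receptor. Janus kinases on the receptor tails then phosphorylate the STAT, which dimerises and enters the nucleus. Type I interferons bind the IFNAR1 and IFNAR2 chains and act through a complex that holds STAT2 and IRF9, whereas interferon gamma binds the IFNGR1 and IFNGR2 chains. STAT3 carries the signals of interleukin-6 and interleukin-10, STAT4 that of interleukin-12, STAT5 those of interleukin-2 and GM-CSF, and STAT6 those of interleukin-4 and interleukin-13. In macrophages STAT6 is known for the alternatively activated state, and STAT4 is best known from T cells and natural killer cells.

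Each library held 14156421 to 16169060 reads in genes, and 10658 to 11219 genes per sample reached an FPKM of 1 (fragments per kilobase of gene, scaled to library depth). The comparison was fitted with limma on log2(FPKM + 1) over 11193 genes, with p-values adjusted by Benjamini-Hochberg, and 0.05 was the threshold for the adjusted p. Fold changes are diabetic minus control on that log2 scale, with the standard error (SE) and the 95% interval of the fit. Of the genes tested, 533 (4.76%) passed, 300 of them higher (2.68%) and 233 lower (2.08%) in the diabetic samples, and the median log2 fold change of all genes was -0.01. Along the first principal component, which held 36% of the variance, diabetic 1, 2 and 4 lay between -30.5 and -20.9, diabetic 3 at -1.44 and the 5 control samples from 11.2 to 23.5. Diabetic 3 thus lay apart from its group. Apoe transcripts were present at 135 to 296 FPKM in the diabetic samples and at 231 to 373 FPKM in the control samples (log2 fold change -0.30, SE 0.23, adjusted p = 0.47). Of 11 macrophage markers in the table none was at 0, and their summed level was 2636 to 4324 FPKM in the diabetic samples and 3330 to 5362 FPKM in the control samples.

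Among the 9 genes, Stat4 rose in the diabetic samples and the other 8 did not pass the test. Thus 1 of 9 members passed, beside 4.76% of all genes tested, and the groups did not overlap for 1 of 9, beside 9.42% of all genes in either direction and 4.82% with the diabetic samples higher. Stat2 had the next largest difference, at 1.62 times the control mean with an adjusted p of 0.053. The receptor chains Ifnar1, Ifnar2, Ifngr1 and Ifngr2 and the factors Stat3, Stat5a and Stat6 had log2 fold changes between -0.26 and 0.13. The 95% intervals of those 7 genes lay between -0.51 and 0.37.

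**Figure D1:**
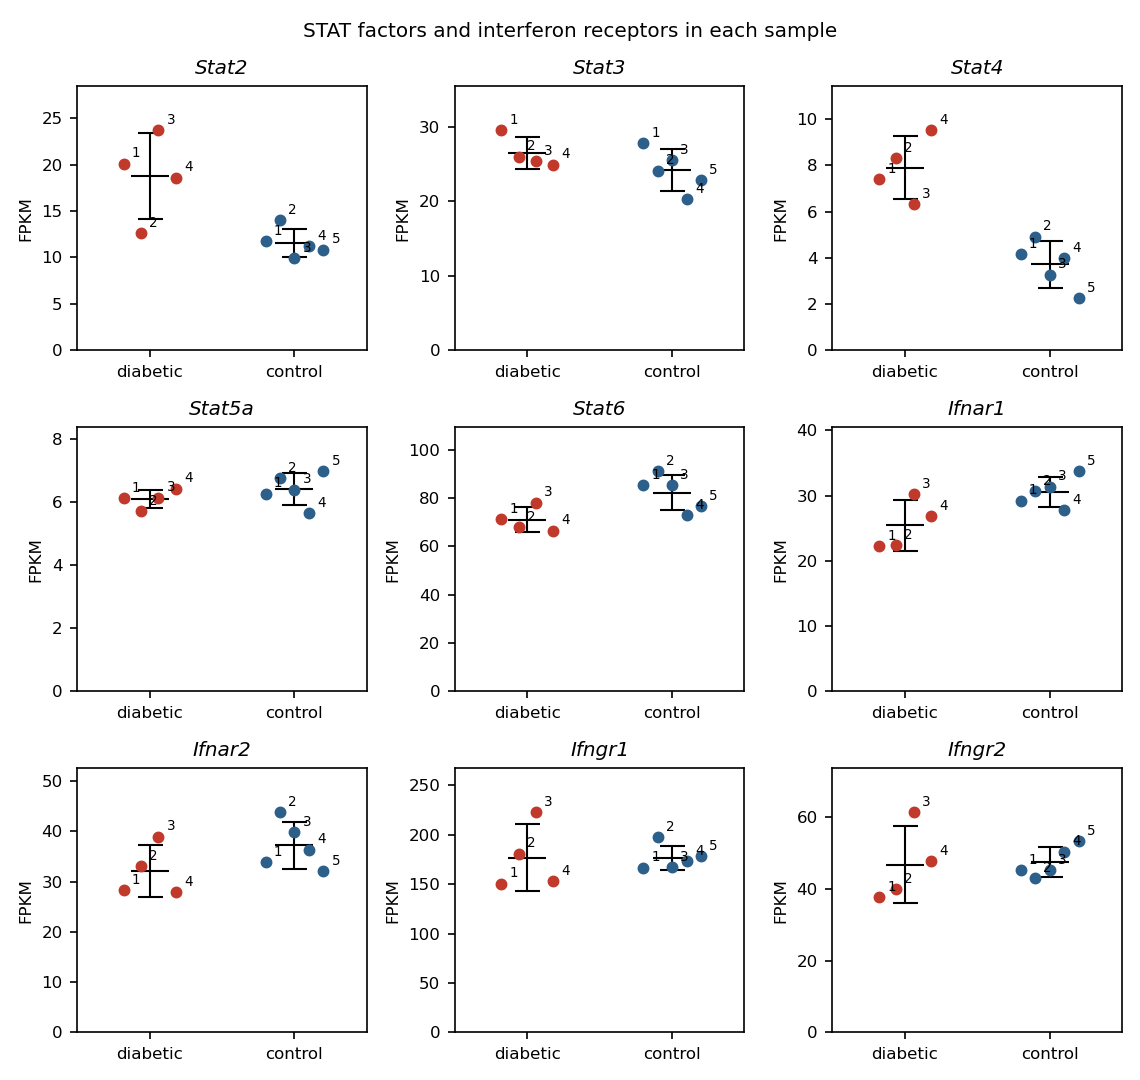
FPKM of the 9 genes (vertical axis, linear, from 0) in the 4 diabetic samples (left in each panel) and the 5 control samples (right); points are samples with their replicate number, and bars give the mean and SD. All 4 diabetic samples lie above the 5 control samples for Stat4, and 3 of 4 do so for Stat2.

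The levels of the 9 genes can be set side by side because FPKM is given per length. Ifngr1 was the highest and Stat6 the next in all 9 samples. Ifngr2 came next in 8 of 9 samples, the exception being control 2, where Ifnar2 was above it. Ifnar2, Ifnar1 and Stat3 held the places after that, in an order that changed between samples, and their ranges overlapped. Stat2 stood above Stat4 and Stat5a in all 9 samples. Stat4 and Stat5a changed places between the groups: Stat4 was above Stat5a in all 4 diabetic samples and below it in all 5 control samples.

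The type I interferon receptor was measured through both chains, Ifnar1 (chromosome 16, 95493907 to 95515401, plus strand, in the table's own coordinates of the C57BL/6NJ gene set) and Ifnar2 (95367320 to 95403604 on the same strand). IFNAR1 is the signalling chain that carries TYK2, and IFNAR2 is the chain with the higher affinity for interferon and carries JAK1. Ifnar1 had 22.3, 22.4, 30.3 and 26.8 FPKM in diabetic 1 to 4, against 29.2, 30.7, 31.4, 27.8 and 33.8 FPKM in control 1 to 5. Diabetic 1, 2 and 4 were below every control sample and diabetic 3 lay among them. The mean was 25.4 ± 3.85 FPKM in the diabetic samples (SD, n = 4) and 30.6 ± 2.25 FPKM in the control samples (SD, n = 5), with a log2 fold change of -0.26 (SE 0.11, 95% interval -0.51 to -0.02, limma adjusted p = 0.20). Without diabetic 3 the log2 fold change was -0.35 (adjusted p = 0.062), and Ifnar1 passed in 1 of 19 alternatives, the fit with sample weights (-0.34, adjusted p = 0.048). Ifnar2 had 28.4, 33.1, 38.9 and 27.9 FPKM in diabetic 1 to 4, against 33.9, 43.8, 39.9, 36.4 and 32.1 FPKM in control 1 to 5. The groups overlapped, with control 5 below diabetic 2 and 3, and the log2 fold change was -0.21 (SE 0.13, 95% interval -0.50 to 0.07, adjusted p = 0.36). Within a sample, the ratio of Ifnar1 to Ifnar2 was 0.676 to 0.962 in the diabetic samples and 0.700 to 1.05 in the control samples, so the balance of the chains overlapped too.

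The 300-base window around the Ifnar1 start, from 250 bases before it to 50 after it, is shown because it holds a match at the start itself (RefSeq, GRCm38.p6, chr16:91484965-91485264, plus strand). Capitals mark TTCNNNGAA, the palindrome that STAT dimers are known to bind, here at -5 to 4 counted from the start with no position 0.
Ifnar1 window: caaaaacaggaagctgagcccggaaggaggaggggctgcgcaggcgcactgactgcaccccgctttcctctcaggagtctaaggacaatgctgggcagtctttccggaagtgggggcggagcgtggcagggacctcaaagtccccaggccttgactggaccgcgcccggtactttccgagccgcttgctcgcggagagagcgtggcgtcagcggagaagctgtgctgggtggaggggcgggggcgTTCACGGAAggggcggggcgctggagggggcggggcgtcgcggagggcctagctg
Of 32851 such windows of all genes, 8.30% hold this motif, and 2 of the 11 windows of the 9 genes do. The other is that of Ifnar2, at -214 to -206. The motif with 4 bases between its arms, TTCNNNNGAA, was in 6.95% of all windows and again in 2 of 11, those of Ifngr2 (-91 to -82) and Stat2. A match is a description of the letters, and the motifs were chosen with the expression values known.

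The receptor for interferon gamma was the most abundant of the set and its group means were close. IFNGR1 is the ligand-binding chain (chromosome 10, 17737926 to 17756192, plus strand) and IFNGR2 the chain that completes the signalling complex (chromosome 16, 95558060 to 95578329, plus strand). Ifngr1 had 151, 181, 223 and 153 FPKM in diabetic 1 to 4, against 167, 197, 167, 173 and 178 FPKM in control 1 to 5. Diabetic 3 was above and diabetic 1 and 4 were below every control sample. The means were 177 ± 33.6 FPKM in the diabetic samples and 176 ± 12.5 FPKM in the control samples (SD), with a log2 fold change of -0.01 (SE 0.13, 95% interval -0.30 to 0.28, adjusted p = 0.97). Ifngr2 had 37.7, 40.0, 61.4 and 47.8 FPKM in diabetic 1 to 4, against 45.3, 43.0, 45.1, 50.3 and 53.2 FPKM in control 1 to 5. The diabetic samples again lay on both sides of the control samples, and the log2 fold change was -0.04 (SE 0.14, 95% interval -0.36 to 0.27, adjusted p = 0.89). The ratio of Ifngr1 to Ifngr2 within a sample was 3.21 to 4.52 in the diabetic samples and 3.34 to 4.58 in the control samples. Diabetic 3 was the highest of the diabetic samples for all 4 receptor chains, and without it the log2 fold changes were -0.31 for Ifnar2, -0.13 for Ifngr1 and -0.18 for Ifngr2, none of which passed.

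**Figure D2:**
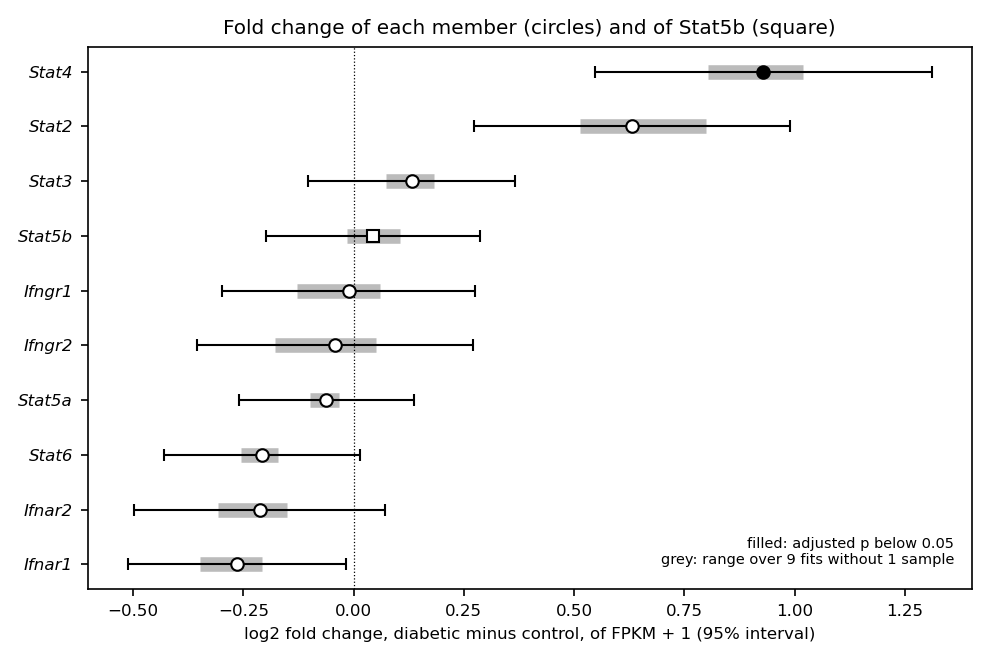
Log2 fold change, diabetic minus control, of FPKM + 1 (horizontal axis) with the 95% interval of the limma fit for the 9 genes (circles) and for Stat5b (square); filled symbols passed at an adjusted p below 0.05 and grey bars span the 9 fits without 1 sample. Stat4 at 0.93 is filled, and the receptor chains lie between -0.26 and -0.01.

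Stat2, which acts with IRF9 in the complex that type I interferons activate, had 20.1, 12.7, 23.7 and 18.6 FPKM in diabetic 1 to 4. It had 11.8, 14.0, 9.92, 11.2 and 10.8 FPKM in control 1 to 5. Diabetic 1, 3 and 4 were above every control sample, and diabetic 2 was below control 2. The mean was 18.8 ± 4.60 FPKM in the diabetic samples (SD, n = 4) and 11.5 ± 1.53 FPKM in the control samples (SD, n = 5). The log2 fold change was 0.63 (SE 0.16, 95% interval 0.27 to 0.99), and the adjusted p of 0.053 missed the threshold. The gene passed in 7 of 19 alternatives. Of the 9 fits without 1 sample it passed in 2, without diabetic 2 (0.80, adjusted p = 0.020) and without control 2 (0.70, adjusted p = 0.047), and the other 7 had adjusted p of 0.065 to 0.13. Without diabetic 3, which had the highest Stat2, the log2 fold change was 0.51 (adjusted p = 0.065), the lowest of the 19. Between 630 and 1508 reads per sample stood behind these values. In the table Stat2 lies on chromosome 10 from 136461565 to 136490450 on the plus strand. Irf9, the DNA-binding partner of the complex, was chosen after its values were seen and averaged 28.3 ± 1.06 FPKM in the diabetic samples and 21.4 ± 2.59 FPKM in the control samples (SD, log2 fold change 0.39, SE 0.10, limma adjusted p = 0.057).

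The Stat2 window is shown because it holds 2 motifs side by side (RefSeq, GRCm38.p6, chr10:128270248-128270547, plus strand). Capitals mark the core of the interferon-stimulated response element, GAAANNGAAA, read on the other strand as TTTCNNTTTC, at -222 to -213, and then TTCNNNNGAA at -210 to -201. The matches do not overlap.
Stat2 window: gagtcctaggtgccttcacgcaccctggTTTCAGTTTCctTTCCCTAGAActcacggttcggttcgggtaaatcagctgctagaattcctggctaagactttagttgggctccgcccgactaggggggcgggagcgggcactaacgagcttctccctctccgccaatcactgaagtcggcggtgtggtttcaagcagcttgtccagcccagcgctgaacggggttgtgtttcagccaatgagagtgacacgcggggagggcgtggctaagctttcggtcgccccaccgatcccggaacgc
Of all 32851 windows, 3.44% hold GAAANNGAAA on either strand, and 2 of the 11 windows of the 9 genes do. The other is a window of Stat4.

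The genes known as targets of type I interferon had a positive log2 fold change in 24 of 26 cases, beside 5342 of all 11193 genes tested. Of 26 tested genes of that list without the members, 5 rose and none fell, beside 2.68% of all genes that rose. The list was chosen with earlier results of these data known, so these counts are a description only. Their median log2 fold change was 0.49, beside -0.01 for all genes. Zbp1, a sensor of unusual nucleic acids, averaged 37.8 ± 12.9 FPKM in the diabetic samples and 14.7 ± 2.50 FPKM in the control samples (log2 fold change 1.25, SE 0.23, adjusted p = 0.018). Xaf1, a binding partner of the apoptosis inhibitor XIAP, rose by 0.84 (adjusted p = 0.023), Mx2, a dynamin-like antiviral GTPase, by 0.68 (adjusted p = 0.039) and Ifi35 by 0.47 (adjusted p = 0.032). The remaining gene of the 5 was Usp18, which is given below with the feedback inhibitors. The summed FPKM of the 27 measured genes was 1050, 648, 1139 and 846 in diabetic 1 to 4, against 712, 793, 551, 752 and 605 in control 1 to 5. Bst2, chosen after its values were seen, gave a large part of each sum, with 446, 282, 412 and 297 FPKM in diabetic 1 to 4. In control 1 to 5 Bst2 had 351, 380, 290, 371 and 269 FPKM (log2 fold change 0.10, SE 0.17, limma adjusted p = 0.78). The sum therefore says less of the other genes of the list. Diabetic 2, the diabetic sample with the lowest Stat2, also had the lowest sum of its group, below control 1, 2 and 4. The count rests on single samples: it was 1, 9, 3 and 0 without diabetic 1 to 4, and 1, 7, 1, 3 and 2 without control 1 to 5. It was 1 with no filter, 8 with voom, 11 with sample weights and 7 without control 2 and diabetic 3.

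The targets of interferon gamma gave 3 genes that rose of 21 tested, beside 2.68% of all genes, and none that fell. Their median log2 fold change was 0.32, and this list too was chosen with earlier results known. Igtp, a GTPase of cell-autonomous defence, averaged 41.5 ± 7.52 FPKM in the diabetic samples and 17.8 ± 2.53 FPKM in the control samples (log2 fold change 1.17, SE 0.14, adjusted p = 0.0033). Irf1, a transcription factor induced by interferons, had 35.8, 27.9, 35.4 and 38.2 FPKM in diabetic 1 to 4, against 18.6, 17.9, 19.8, 20.3 and 21.2 FPKM in control 1 to 5 (log2 fold change 0.77, SE 0.11, adjusted p = 0.0055). Both groups were clear of each other for Igtp and Irf1, and both genes passed in all 9 fits without 1 sample. Tap1, a peptide transporter for antigen presentation, rose by 0.63 (adjusted p = 0.019) but did not pass without diabetic 1 or diabetic 4. The count of this list was 2, 7, 4 and 2 without diabetic 1 to 4, and 3, 5, 3, 3 and 3 without control 1 to 5, and it was 7 with voom, 8 with sample weights and 6 without control 2 and diabetic 3. The summed level of the list says little of its other members, since Cd74 and H2-Ab1, of antigen presentation on class II molecules, made up 88.2 to 91.4% of it in the diabetic samples and 89.2 to 93.2% in the control samples.

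**Figure D3:**
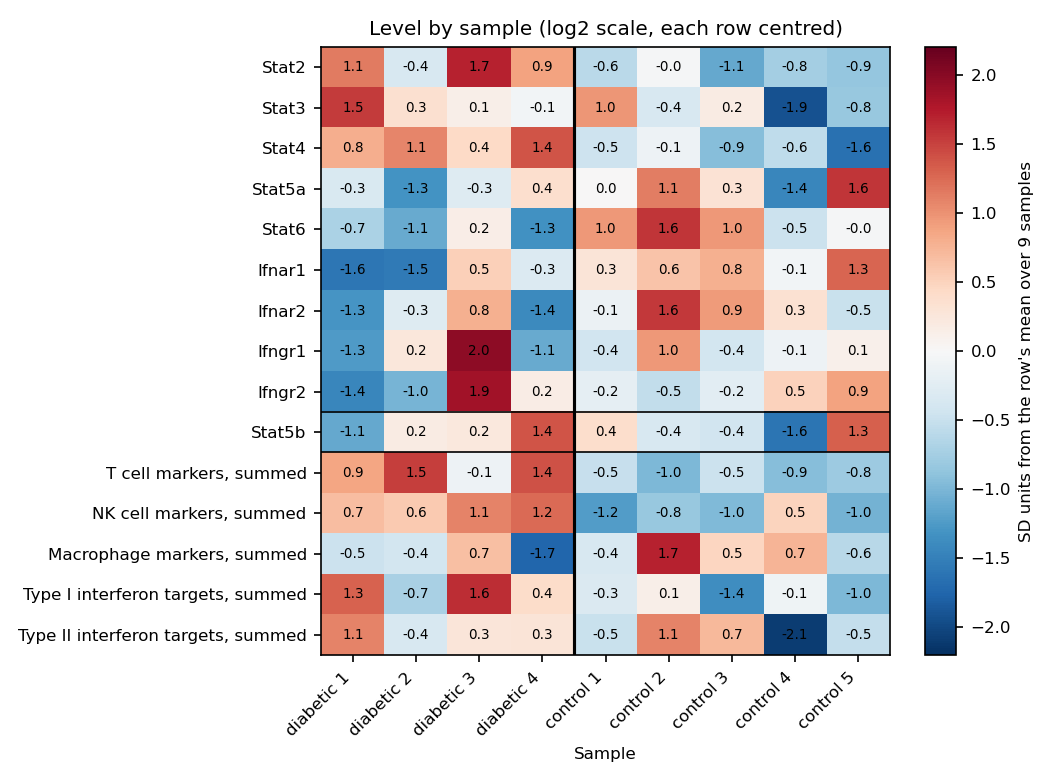
Level of the 9 genes, of Stat5b, and of 5 summed gene lists (rows) in the 4 diabetic samples (left) and the 5 control samples (right), as SD units of log2 from the mean of each row over 9 samples. Diabetic 3 holds the highest value of all samples for Stat2, Ifngr1 and Ifngr2, at 1.7, 2.0 and 1.9 SD units.

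Stat4 had 7.39, 8.31, 6.32 and 9.52 FPKM in diabetic 1 to 4, against 4.17, 4.91, 3.27, 3.97 and 2.26 FPKM in control 1 to 5. All 4 diabetic samples were above all 5 control samples. The mean was 7.89 ± 1.36 FPKM in the diabetic samples (SD, n = 4) and 3.72 ± 1.0025 FPKM in the control samples (SD, n = 5), a ratio of 2.12. Stat4 rose by 0.93 on the log2 scale (SE 0.17, 95% interval 0.55 to 1.31, limma adjusted p = 0.018), with 141 to 575 reads per sample. It passed in 7 of the 9 fits without 1 sample and missed the threshold without diabetic 2 (0.90, adjusted p = 0.055) and without diabetic 4 (0.84, adjusted p = 0.059). Over 19 alternatives it passed in 15, with log2 fold changes between 0.80 and 1.12 and adjusted p between 0.0045 and 0.059.

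Markers of T cells, in which STAT4 is best known, moved with this gene. Of 18 tested T cell markers 17 rose, beside 2.68% of all genes, with a median log2 fold change of 2.02. In the 9 fits without 1 sample 12 to 18 rose. Without control 2 and diabetic 3 together 18 rose, and 9 did so at an FPKM of at least 5. Cd3e, a chain of the T cell receptor complex, averaged 17.4 ± 7.82 FPKM in the diabetic samples and 2.69 ± 0.593 FPKM in the control samples (log2 fold change 2.21, SE 0.29, adjusted p = 0.0055). The summed FPKM of the 20 markers was 472, 748, 240 and 687 in diabetic 1 to 4, against 184, 132, 188, 137 and 151 in control 1 to 5, and none of the 20 was at 0. Diabetic 3 had the lowest Stat4 and the lowest marker sum of the diabetic samples, whereas control 2 had the highest Stat4 and the lowest marker sum of the control samples. Of 11 tested natural killer cell markers 3 rose (median 0.40), beside 2.68% of all genes, and Klra8 was at 0. The sum of these markers was 109 to 142 FPKM in the diabetic samples and 53.2 to 105 FPKM in the control samples. The part of these cells in the Stat4 result was not tested, and in these bulk samples a change in the number of cells of a type and a change in RNA per cell cannot be told apart.

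**Figure D4:**
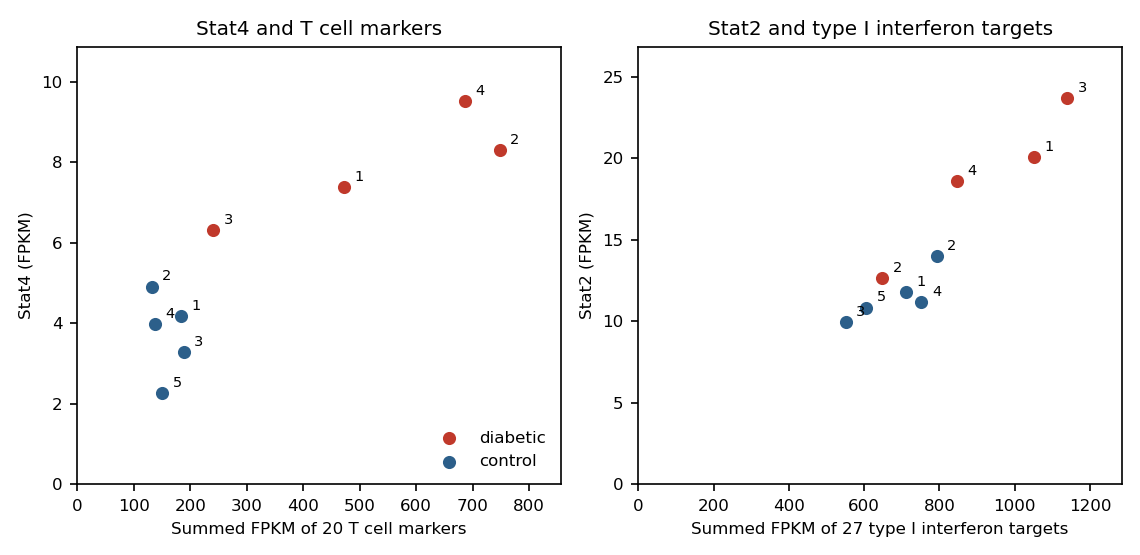
Left, Stat4 FPKM against the summed FPKM of 20 T cell markers; right, Stat2 FPKM against the summed FPKM of 27 type I interferon targets; each point is a diabetic or control sample with its replicate number. Diabetic 3 has the lowest Stat4 (6.32) and marker sum (240) of the diabetic samples, and diabetic 2 the lowest Stat2 (12.7) and target sum (648). Bst2 alone gave 269 to 446 FPKM of the target sums.

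Stat4 has 2 annotated starts in the RefSeq table, and both windows are shown since they differ in the interferon motif (GRCm38.p6, plus strand, chr1:51986898-51987197 and chr1:52007990-52008289). Capitals mark GAAANNGAAA, at -97 to -88 of the start of window 2, and window 1 holds none of the 3 motifs.
Stat4 window 1: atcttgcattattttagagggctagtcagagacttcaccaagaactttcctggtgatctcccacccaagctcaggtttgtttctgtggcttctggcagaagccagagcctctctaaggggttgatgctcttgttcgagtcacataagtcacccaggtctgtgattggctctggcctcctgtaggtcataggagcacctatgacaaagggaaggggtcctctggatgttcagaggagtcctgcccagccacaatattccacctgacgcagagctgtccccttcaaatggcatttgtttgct
Stat4 window 2: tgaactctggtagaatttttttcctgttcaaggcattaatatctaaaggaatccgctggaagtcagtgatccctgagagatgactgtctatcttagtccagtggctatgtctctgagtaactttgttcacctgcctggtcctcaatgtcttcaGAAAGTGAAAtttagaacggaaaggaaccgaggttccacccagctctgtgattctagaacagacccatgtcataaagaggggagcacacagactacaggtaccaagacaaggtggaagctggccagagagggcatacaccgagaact
The deposited values are per gene, so they do not tell which start was used. In the table Stat4 lies on chromosome 1 from 53664175 to 53788748 on the plus strand. The gene model Gm28177 overlaps it on that strand and averaged 0.017 FPKM.

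The receptors known to act through STAT4 were low. The receptor chains Il12rb1, Il12rb2 and Il23r were all under the filter of FPKM 1 in 4 samples. Il12rb2, the chain to which STAT4 binds, had 40 reads over the 4 diabetic samples and 123 reads over the 5 control samples; its mean was 0.175 ± 0.0873 FPKM in the diabetic samples and 0.436 ± 0.137 FPKM in the control samples (SD). Il12rb1, the chain shared by the interleukin-12 and interleukin-23 receptors, had 151 reads over the diabetic samples and 99 over the control samples, and Il23r had 21 and 24 reads in these groups. Il12b, the subunit shared by interleukin-12 and interleukin-23, was also under the filter, with 158 reads over the diabetic samples and 49 over the control samples. The other subunit of interleukin-12, Il12a, averaged 4.21 ± 1.64 FPKM in the diabetic samples and 1.96 ± 0.815 FPKM in the control samples (log2 fold change 0.78, SE 0.26, adjusted p = 0.12). Without diabetic 3 its difference was 1.06 (adjusted p = 0.0086). Ifng, the main product of STAT4 in lymphocytes, had 24 reads over the 4 diabetic samples and 24 over the 5 control samples. Of 8 tested STAT4 targets 1 rose and 1 fell, beside 2.68% and 2.08% of all genes, with a median of -0.01. Il18r1, a chain of the interleukin-18 receptor, averaged 3.36 ± 0.954 FPKM in the diabetic samples and 1.28 ± 0.242 FPKM in the control samples (log2 fold change 0.92, SE 0.15, adjusted p = 0.011). It passed in all 9 fits without 1 sample. Furin, a proprotein convertase, fell by 0.64 (adjusted p = 0.037) and passed in 3 of those 9 fits, those without diabetic 3, control 2 or control 4.

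Stat6, the factor of interleukin-4 and interleukin-13 (chromosome 10, 135714923 to 135734568, plus strand), was the highest STAT of the set. It had 71.2, 68.0, 78.0 and 66.4 FPKM in diabetic 1 to 4, against 85.2, 91.1, 85.3, 72.9 and 76.5 FPKM in control 1 to 5. Diabetic 1, 2 and 4 were below every control sample, and diabetic 3 lay above control 4 and 5. The mean was 70.9 ± 5.15 FPKM in the diabetic samples and 82.2 ± 7.35 FPKM in the control samples (SD), with a log2 fold change of -0.21 (SE 0.10, 95% interval -0.43 to 0.01, adjusted p = 0.25). It passed in 0 of 19 alternatives. Nab2, on the opposite strand, overlaps its end in the table and averaged 17.1 FPKM, and the strand setting of the counting is not given in the sources used here.

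Of 16 tested targets of STAT6, 4 fell and none rose, beside 2.08% of all genes that fell, and the median log2 fold change was -0.33. The list was chosen with earlier results of these data known, so its count is a description only. Retnla, a secreted marker of alternative activation, had 171, 98.8, 246 and 180 FPKM in diabetic 1 to 4, against 478, 4683, 771, 1097 and 534 FPKM in control 1 to 5. All diabetic samples were below all control samples, and control 2 stood far above the rest. Its log2 fold change was -2.59 (SE 0.61, adjusted p = 0.043). Mrc1, the mannose receptor, fell by 1.13 (adjusted p = 0.033), Egr2, a zinc finger factor, by 0.87 (adjusted p = 0.024) and Matk, a kinase that restrains Src family kinases, by 1.12 (adjusted p = 0.0055). Of the 9 fits without 1 sample Matk passed in 9, Egr2 in 5, Retnla in 3 and Mrc1 in 1, that without diabetic 3. Diabetic 3, at 41.0 FPKM of Mrc1, lay above control 3 at 38.8 FPKM. Mrc1 is also a macrophage marker, and of 10 tested macrophage markers it was the 1 that fell, with a median of -0.22 over that list; their part in the STAT6 targets was not tested. The number of targets that fell was 2, 1, 4 and 1 without diabetic 1 to 4, and 3, 3, 1, 1 and 2 without control 1 to 5, and 1 with no filter. Without diabetic 3, Alox15, a lipoxygenase, passed as the 1 target that rose (1.60, adjusted p = 0.028), against 1.35 (adjusted p = 0.062) over all samples. Alox15 also stands on the list of large peritoneal macrophage markers, and the part of those cells was not tested. Arg1, the arginase often used beside Retnla as a marker, was chosen after its values were seen and averaged 992 ± 150 FPKM in the diabetic samples and 1199.7 ± 878 FPKM in the control samples (SD, log2 fold change 0.01, adjusted p = 0.99). The receptor chains Il4ra (0.34, adjusted p = 0.16) and Il13ra1 (0.18, adjusted p = 0.44) did not pass, and Il13ra2, the decoy receptor, was listed at 0 in all 9 samples.

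Stat3 (chromosome 11, 106877999 to 106933118, minus strand), the factor of the interleukin-6 and interleukin-10 family, had 29.6, 26.0, 25.4 and 24.9 FPKM in diabetic 1 to 4, against 27.9, 24.1, 25.6, 20.4 and 22.9 FPKM in control 1 to 5. Diabetic 1 was above and the others lay among the control samples, with a log2 fold change of 0.13 (SE 0.11, 95% interval -0.10 to 0.37, adjusted p = 0.50). Of 9 tested receptors that act through STAT3, 1 fell, beside 2.08% of all genes, and none rose, with a median of -0.34. That 1 was Il11ra1, the interleukin-11 receptor chain, which averaged 3.04 ± 1.17 FPKM in the diabetic samples and 6.73 ± 1.90 FPKM in the control samples (log2 fold change -0.94, SE 0.23, adjusted p = 0.041). It passed in 2 of the 9 fits without 1 sample, those without diabetic 4 or control 5. Without diabetic 3 it missed the threshold (-0.82, adjusted p = 0.055), while Il6ra, the interleukin-6 receptor chain (-0.45, adjusted p = 0.024), and Lifr, the receptor chain for LIF (-0.62, adjusted p = 0.0080), passed. Over all samples these had log2 fold changes of -0.37 (adjusted p = 0.082) and -0.42 (adjusted p = 0.19). The count was 3 with sample weights, 2 with samples rescaled to the same sum and 0 with no filter. Of 16 tested STAT3 targets 1 fell, beside 2.08% of all genes, with a median of -0.13. Timp1, an inhibitor of matrix metalloproteinases, had 5.90 to 8.01 FPKM in the diabetic samples and 12.2 to 70.4 FPKM in the control samples (log2 fold change -2.15, SE 0.50, adjusted p = 0.041). It passed without control 2 or control 4 but in none of the other 7 such fits, nor with voom.

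Stat5a and its close copy Stat5b both carry the signals of interleukin-2, GM-CSF and related cytokines. Stat5a had 6.12, 5.71, 6.15 and 6.43 FPKM in diabetic 1 to 4, against 6.27, 6.77, 6.40, 5.66 and 6.99 FPKM in control 1 to 5. Every diabetic sample lay within the control range, and the log2 fold change was -0.06 (SE 0.09, 95% interval -0.26 to 0.14, adjusted p = 0.73), the narrowest interval of the 9 genes. Stat5b averaged 19.1 ± 2.05 FPKM in the diabetic samples and 18.5 ± 2.11 FPKM in the control samples (SD, log2 fold change 0.04, SE 0.11, adjusted p = 0.85), and stood 2.71 to 3.36 times above Stat5a in the diabetic samples and 2.65 to 3.10 times in the control samples. The 2 genes are alike in sequence, so their split is uncertain where reads match both. Stat5b, Stat5a (106846037 to 106876362, plus strand) and Stat3 are neighbours on chromosome 11, with 9606 and 1637 bases between them in the table.

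Among 10 tested receptors that act through STAT5, 2 rose and 1 fell, beside 2.68% and 2.08% of all genes, with a median of 0.24. Il2rb, a chain shared by the interleukin-2 and interleukin-15 receptors, averaged 15.6 ± 2.72 FPKM in the diabetic samples and 7.78 ± 1.38 FPKM in the control samples (log2 fold change 0.92, SE 0.15, adjusted p = 0.0097). It passed in all 9 fits without 1 sample. Il2rg, the common gamma chain, rose by 0.52 (adjusted p = 0.027) and did not pass without diabetic 2, diabetic 4, control 3 or control 5. Csf2ra, the GM-CSF binding chain of myeloid cells, averaged 107 ± 26.1 FPKM in the diabetic samples and 184 ± 21.3 FPKM in the control samples (log2 fold change -0.81, SE 0.17, adjusted p = 0.023), and did not pass without diabetic 2, diabetic 4 or control 3. Il2rb also stands on the natural killer cell list, and the part of the lymphocyte markers given above in these receptor values was not tested. Of 8 tested STAT5 targets 2 rose, beside 2.68% of all genes, with a median of 0.23. Bcl2, an inhibitor of apoptosis, rose by 1.01 (adjusted p = 0.025) and Pim2, a survival kinase, by 1.35 (adjusted p = 0.037). Diabetic 3 was the lowest of its group for Bcl2 (3.35 FPKM) and Pim2 (8.28 FPKM), as for the T cell marker sum. The part of lymphocytes in these target values was not tested. The count of STAT5 targets that rose was 0, 0, 2 and 0 without diabetic 1 to 4, and 2, 1, 0, 0 and 1 without control 1 to 5.

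Of the ligands and kinases upstream none passed over all 9 samples. Of a list of 10 interferon ligands, 8 were found in the table and all 8 lay under the filter. Ifnb1 had 4 reads, all in diabetic 3, Ifnk had 1 read in each group, and Ifna1, Ifna4, Ifna5, Ifne and Ifnl2 had 0 reads in all 9 samples, so they were not detected at this depth. Of 20 other cytokines of these pathways 7 were tested and 0 passed with limma, on log2 values or with voom, while 3 had an unadjusted p below 0.05. Among these 3, Il4 averaged 2.42 ± 0.569 FPKM in the diabetic samples and 4.12 ± 1.49 FPKM in the control samples (SD). Its log2 fold change was -0.54 (SE 0.22, limma adjusted p = 0.18). The 2 with the smallest p were Clcf1, a ligand of the interleukin-6 family (0.87, adjusted p = 0.097), and Il12a. Both passed without diabetic 3, Clcf1 at 1.19 (adjusted p = 0.0017), and 2 genes of the list also passed with sample weights and without control 2 and diabetic 3. Of the 4 Janus kinases, which phosphorylate the receptors and the STATs, 0 passed with limma, on log2 values or with voom, and 1 had an unadjusted p below 0.05. Tyk2, the kinase bound to IFNAR1, averaged 16.8 ± 1.33 FPKM in the diabetic samples and 21.1 ± 3.26 FPKM in the control samples (log2 fold change -0.30, SE 0.12, adjusted p = 0.17), and Jak1, the kinase bound to IFNAR2, averaged 41.6 ± 2.75 FPKM in the diabetic samples and 36.6 ± 2.05 FPKM in the control samples (0.18, SE 0.09, adjusted p = 0.26).

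Of 17 tested feedback inhibitors and phosphatases of the pathway, 1 rose, beside 2.68% of all genes, and none fell, with a median of -0.06. That 1 was Usp18, the protease that removes ISG15 and blocks signalling at IFNAR2. Usp18 is also counted among the type I interferon targets that rose. It had 14.8, 9.72, 16.2 and 13.0 FPKM in diabetic 1 to 4, against 7.31, 10.0, 5.07, 8.78 and 6.30 FPKM in control 1 to 5 (log2 fold change 0.77, SE 0.19, adjusted p = 0.042). As for Stat2, diabetic 2 was the lowest of its group and lay below control 2. Usp18 passed in 2 of the 9 fits without 1 sample, those without diabetic 2 or control 2. Socs1 and Socs3, which block Janus kinases, were chosen after their values were seen and had log2 fold changes of 0.56 (adjusted p = 0.24) and 0.07 (adjusted p = 0.90). Without diabetic 3 Socs1 passed (0.83, adjusted p = 0.023), and Usp18 did not.

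**Figure D5:**
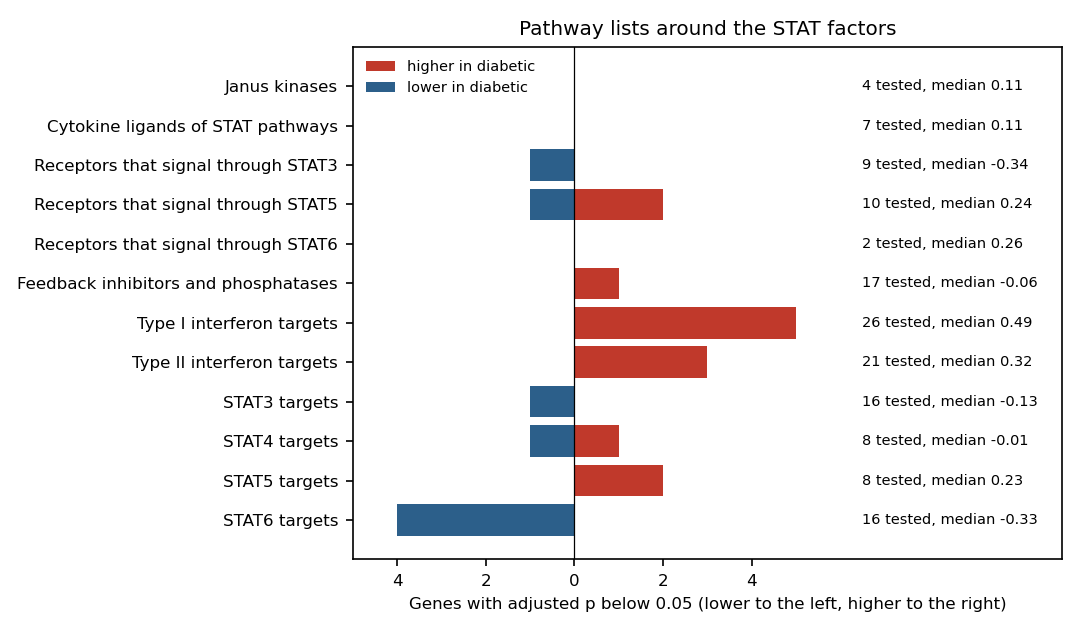
Number of genes of each pathway list with an adjusted p below 0.05 (horizontal axis), higher in the diabetic samples to the right and lower to the left, with the number tested and the median log2 fold change; members are left out of the lists. The type I interferon targets hold 5 genes to the right and the STAT6 targets 4 to the left. Usp18 is counted under both the type I interferon targets and the feedback inhibitors.

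The genes whose levels followed each member most closely were found by the root mean square difference of standardised log2 levels over the 9 samples, among 9820 named protein-coding genes. For Stat2 these were Irgm2 and Dhx58, an interferon-inducible GTPase and a helicase of the RIG-I family, at 0.18 SD units each. For Stat4 they were Txndc16 (0.16) and Gramd3 (0.27), of which Gramd3 rose by 1.13 (adjusted p = 0.0054). For Stat6 they were Cln3 and Slc38a7 (0.22 each), for Stat3 Atxn7l2 (0.37) and E2f4 (0.43), and for Stat5a Smarcc1 (0.34) and Ehmt1 (0.35). For the receptors they were Tnfrsf1b (0.21) beside Ifnar1, Capns1 (0.21) and Pigu (0.24) beside Ifnar2, Amz2 (0.26) and Fuca2 (0.30) beside Ifngr1, and Ern1 (0.23) and Rbbp5 (0.28) beside Ifngr2. The median over all candidates was 1.29 to 1.36 SD units for the 9 genes. The named genes were picked as the nearest of all candidates, so their values are small by that choice.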

How the data were processed

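RNA was sequenced from peritoneal exudate cells in 4 diabetic and 5 control samples. Expression came as 1 deposited table that lists FPKM per gene, per the file headers. GRCm38 and mm10 are named in the submitters' processing notes. Neither aligner nor counter nor strandedness is given in the sources used here. The identifiers belong to the C57BL/6NJ gene set and the build behind the table's positions is not named. Every value is a whole multiple of 1 read (100% within 0.05), and the deposited FPKM carry median-of-ratios scaling between samples, within 6.56e-10 percent. All 9 columns were matched to samples by title. Of the 41096 genes, 30409 were named by the name column and 386 by a reviewed mouse UniProt match.

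Diabetic and control samples were compared by limma 3.58.1 under R 4.3.3 (lmFit, eBayes with trend and robust moderation) on log2(FPKM + 1), keeping genes that reached an FPKM of 1 in 4 or more samples. Tests were two-sided, with Benjamini-Hochberg adjustment over all 11193 genes, and the script was tested on simulated data. All 9 members passed the filter. PCR duplicates could not be recognised, and low genes rest on few reads. The members, the gene lists and the motifs were chosen with earlier results of these data known. The genes named from a pathway list are those that passed, at most 4 by smallest p, or else the 2 with the smallest p. Alternatives changed the pseudocount, the filter, the scaling, the moderation and the weights, used voom on the recovered reads or a block by replicate number, and left out each sample. Leaving out control 2 and diabetic 3 together was chosen after seeing the data. Promoter windows and their coordinates are from RefSeq, GRCm38.p6, and all 9 members matched. Some genes that these rules would name are not reported here.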

Additional observations from a re-analysis of the deposited data

How the results depend on the processing

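The number of genes that passed, 533, was 183 with no filter, 1304 with sample weights, 1180 without control 2 and diabetic 3, and 146 to 1170 when 1 sample was left out. The number of members that passed, 1, was 0 with no filter, 2 at an FPKM of at least 5, with quantile normalization, with voom and without control 2 and diabetic 3, 3 with sample weights, and 0 to 2 when 1 sample was left out. Stat2 joined Stat4 in every fit that gave 2, and Ifnar1 joined both with weights. With the replicate block, in which control 5 has no partner and drops out, 62 genes and 0 members passed, Stat4 at 0.80 (adjusted p = 0.053), with 1 T cell marker and 0 type I interferon targets. Deviations from the group means in samples of the same number had correlations of 0.023, 0.16, -0.26 and -0.18. Between samples of different numbers the correlations ran from -0.30 to 0.33. These values cannot decide whether samples of the same number shared a batch or a day.

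Genes near 0 changed sign. Ifngr1 was 0.046 with quantile normalization, 0.060 without diabetic 1, 0.051 without diabetic 4 and 0.030 without control 2, and ranged from -0.13 to 0.060 over the fits without 1 sample. Ifngr2 was 0.00018 with the replicate block and without control 5, 0.050 without diabetic 1 and 0.022 without diabetic 2, with a range of -0.18 to 0.050. Stat5b was -0.037 with sample weights, -0.015 without diabetic 4 and -0.0094 without control 4, with a range of -0.015 to 0.11. None of these passed. The alternatives for members under the filter were void, since all 9 passed it. The causes were not tested.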

Other observations

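Ratios between members within a sample do not depend on the scaling between samples. The ratio of Stat4 to Stat6 was 0.0809 to 0.143 in the diabetic samples and 0.0295 to 0.0545 in the control samples. The groups did not overlap, and they did not for Stat4 alone. The ratio of Stat2 to Ifnar1 was 0.565 to 0.902 in the diabetic samples and 0.316 to 0.457 in the control samples, without overlap. Stat2 alone did overlap: in diabetic 2 it was below control 2, while Ifnar1, the divisor, was below every control sample at 22.4 FPKM. The ratio of Stat6 to Stat3 was 2.40 to 3.07 in the diabetic samples and 3.06 to 3.77 in the control samples, and only the highest diabetic and the lowest control sample crossed. These ratios were chosen after the values were seen and were not tested.

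Ifnar2, Ifnar1 and Ifngr2 lie on chromosome 16 of the table together with Il10rb, the shared chain of the interleukin-10 receptor family, which begins 1750 bases after the end of Ifnar2. Il10rb averaged 52.7 ± 10.0 FPKM in the diabetic samples and 48.2 ± 9.85 FPKM in the control samples (SD, log2 fold change 0.13, SE 0.17, limma adjusted p = 0.69). Ifngr1, the other chain of the interferon gamma receptor, lies apart on chromosome 10, where Stat2 and Stat6 also lie.

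Markers of further cell types were measured in the same libraries. Beside their counts stand the 2.68% of all genes that rose and the 2.08% that fell. Of 13 tested B cell markers 3 rose, among them Ighd, the heavy chain of immunoglobulin D (log2 fold change 2.48, adjusted p = 0.011), and Fcmr (1.55, adjusted p = 0.0097). Their sum was 1633 to 3480 FPKM in the diabetic samples and 1066 to 2223 FPKM in the control samples. Of 5 tested dendritic cell markers 2 rose, Ccr7 (1.95, adjusted p = 0.00635) and Dpp4 (0.70, adjusted p = 0.015), and Batf3 fell. Diabetic 3 was the lowest of its group for Ccr7 (63.0 FPKM) and Dpp4 (4.82 FPKM), as for the T cell marker sum. Which cells carried these 2 transcripts was not tested. Of 10 tested monocyte markers 2 rose, among them Fcgr4 (0.97, adjusted p = 0.028). With limma, on log2 values or with voom, 0 of 11 large peritoneal macrophage, 0 of 7 neutrophil, 0 of 3 eosinophil and 0 of 7 mast cell and basophil markers passed, and 5, 0, 2 and 4 of them had an unadjusted p below 0.05. Their median log2 fold changes were 0.26, -0.42, -1.27 and -0.83 in that order. No tested eosinophil or mast cell and basophil marker had a positive value. The eosinophil sum was 8.56 to 17.8 FPKM in the diabetic samples and 15.2 to 53.2 FPKM in the control samples. The mast cell and basophil sum was 114 to 382 FPKM in the diabetic samples and 287 to 709 FPKM in the control samples. The part of these cells in the results for the 9 genes was not tested.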
